A study of Mus musculus with 6 samples.

Results

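The transcripts described here are those reached by array probes that were designed against a stretch of the mouse genome instead of a transcript with an accession. The array carried 16181 such probes among its 55681 non-control probes, and they covered 3541 genomic regions and 4607 region strands, a region strand being 1 region read in 1 direction. Members were all non-control probes whose deposited target name is a chromosome with a start and an end in build mm9, leaving out 13 probes of 2 regions in a stretch of chromosome 5 that was set aside. The regions were between 62 and 7128487 bp long, with a median of 7297 bp, and each region strand had 1 to 10 probes with a median of 3. The suffix F or R of the target name was read as the forward or reverse strand, which gave 2316 forward and 2288 reverse region strands, while 3 region strands, with 13 probes, carried no suffix.

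Large intergenic noncoding RNAs are transcribed from the stretches between protein-coding genes, are often spliced and polyadenylated, and encode no known protein. Many were first recognised as chromatin domains with the marks of active promoters and of elongating polymerase that matched no known gene, so array designs described them by interval and probed 1 or both strands. In the developing nervous system a number of them are restricted to particular cell types, and several lie beside genes for transcription factors. The label of intergenic noncoding transcripts could not be checked gene by gene, since an mm9 annotation was not used here. For the same reason no neighbouring gene, exon or intron is named for a region.

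Gene expression was measured in S-phase cells sorted out of the dorsal telencephalon, which becomes the cerebral cortex, of C57BL/6J mouse embryos at embryonic day 14.5. All embryos were heterozygous for a GFP knock-in at Tis21 (Btg2), so both groups share this genotype, and GFP reports activity of that locus, which marks progenitors that have begun to make neurons. A vital DNA dye showed which dissociated cells were part-way through replication, and these were sorted by green fluorescence into a Tis21-GFP positive and a negative fraction. Each of the 3 arrays per group held RNA of about 200000 cells pooled from 30 hemispheres of 15 embryos, and the authors used the 3 sets they judged best out of a larger number of experiments. Values below are log2 processed intensity minus the array's 75th percentile over non-control probes, and differences are Tis21-GFP positive minus negative, with the moderated SE of limma. Array values are given in the order of replicates 1, 2 and 3.

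The sort was visible in its marker genes. Btg2, the gene of the reporter locus, read 1.32, 1.84 and 1.67 on the positive arrays and 0.67, 0.91 and 0.94 on the negative ones (difference 0.77 ± 0.18, limma adjusted p = 0.0258). All 10 intermediate progenitor markers were higher in the positive cells, with a median difference of 2.57, and 8 of 10 radial glia markers were lower, with a median of -0.96. Markers of cells outside the neural lineage were also lower in the positive cells: all 8 tested microglia and macrophage markers (median -2.39), all 8 tested markers of meninges and mesenchyme (median -3.27) and 4 of 7 tested endothelial and pericyte markers (median -1.54). Of the postmitotic neuron markers, 5 of 10 were higher and 3 lower, of the interneuron markers 2 of 7 tested were lower, and of the erythroid markers 1 of 6 tested was lower. In RNA of sorted populations, fewer cells of a type and less RNA per cell cannot be told apart. Each array held 62976 spots, none saturated (0 spots), and between 28520 and 31277 probes well above background.

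Most region probes gave no signal that could be measured in these cells. Of the 16181 probes, 8599 (53.1%) were well above background on no array and 4881 (30.2%) on all 6 arrays, against 34.3% and 54.0% of the 39487 accession probes. On the positive arrays, 36.8%, 37.1% and 36.2% of region probes were well above background. The negative arrays reached 36.3%, 41.6% and 39.0%, so the ranges of the groups overlapped. A test was made for the 5778 region probes (35.7%) with this flag on every array of 1 group or of both. These belonged to 2679 region strands in 2201 regions, and the other 10403 probes were not tested. Just inside that threshold lay 897 probes that were complete in 1 group only, with a median level of -3.56 (-5.01 to 1.25), and just outside lay 730 probes with 2 arrays of a group at most, with a median of -4.02 (-5.24 to -3.04).

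Detection itself was uneven between the groups. There were 112 region probes that were well above background on all 3 negative arrays and on no positive array, and 12 with the opposite pattern. Among accession probes the corresponding numbers were 340 and 60. These probes passed the filter through 1 group only, so their differences had to lie in that direction. Of the 112, 82 were called lower, and of the 12, 6 were called higher. Among the accession probes, 285 of the 340 were called lower and 47 of the 60 higher. The summed level of the microglia and macrophage markers, as intensity relative to the 75th percentile, was 3.94 to 7.35 in the positive and 12.8 to 16.8 in the negative cells, and that of meninges and mesenchyme 0.676 to 0.955 against 4.71 to 9.32. No meninges or mesenchyme signal above background was seen on any positive array for 5 of that list's 10 genes. For 2 of these, Foxc1 and Twist1, none was seen on any negative array either. For endothelial cells and pericytes the sums were 9.56 to 10.5 on the positive and 8.28 to 9.51 on the negative arrays, and most of them was Kdr, a receptor for vascular endothelial growth factor, which did not pass the test (0.45 ± 0.15, limma adjusted p = 0.0837). Without Kdr the sums were 0.394 to 0.592 in the positive and 1.61 to 2.34 in the negative cells, and 6 of the 10 genes were above background on no positive array. Of these, Tek was above background on no negative array either. The part of these cell types in the lower region probes was not tested.

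The expression of 570 of the 5778 tested region probes differed between Tis21-GFP positive and negative cells (limma, Benjamini-Hochberg adjusted p under 0.05 over all 28928 tested probes). This is 9.87%, against 16.5% of all tested probes. Higher in the positive cells were 205 region probes (3.55%, against 7.52% of all probes), and lower were 365 (6.32%, against 8.96%). The median difference was -0.02 over the tested region probes, 0.09 over all tested probes and 0.12 over the accession probes. Changes of at least 2-fold were called higher for 55 region probes (0.952%, against 2.18% of all probes) and lower for 219 (3.79%, against 5.57%). The groups did not overlap for 1564 region probes (27.1%, against 40.6% of all tested probes).

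The balance between higher and lower calls depended on which probes were read and on the scaling. Among the 4881 region probes well above background on all 6 arrays, 392 were called (8.03%, against 14.7% of all such probes), 179 higher (3.67%, against 7.73%) and 213 lower (4.36%, against 7.01%). Of the 570 calls over all tested region probes, 36.0% were higher. That share was 53.2% with normexp background correction, 47.4% with quantile normalization, 47.2% with the authors' processed values, 58.7% with median centring and 13.2% when the percentile was that of the fully detected probes. Median centring moved the median difference of all probes from 0.09 to 0.27, and the detected-probe percentile moved it to -0.09. The counts also moved with single arrays: 70 higher and 145 lower were called without negative replicate 1, 101 and 206 without negative replicate 2, and 72 and 142 without negative replicate 3. Without positive replicate 1 there were 103 higher, and without positive replicate 3 there were 558 lower. The main fit leaves out the pairing of arrays by replicate number. With the replicate as a block, 228 region probes were called higher and 498 lower.

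**Figure D1:**
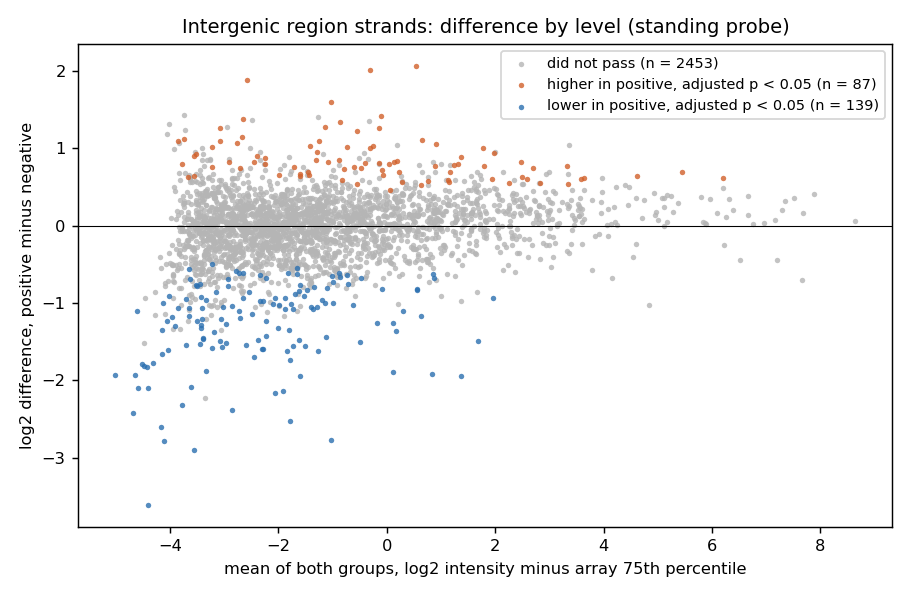
Difference between Tis21-GFP positive and negative cells (log2) against the mean level of both groups (log2 intensity minus the array's 75th percentile) for the 2679 tested region strands, each shown by its brightest tested probe. The 87 higher strands (orange) spread over the whole range of levels, whereas the 139 lower strands (blue) are denser among dim probes, and 2453 strands (grey) did not pass.

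Taking each region strand by its tested probe with the highest mean, here called its standing probe, 226 of 2679 region strands were called (8.44%), 87 higher (3.25%) and 139 lower (5.19%), against the 16.5% of all tested probes. Their differences ran from -3.61 to 2.07, with a median of 0.01, and the middle 90% of strands lay between -0.93 and 0.65. The lowest of them, -3.61, belonged to a strand with 1 tested probe that was above background on no positive array.

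The share of region probes called was below that of accession probes at every level of brightness. Probes above background on all 6 arrays of whatever kind were split into 4 classes of equal size by mean level. In the dimmest class, 7.42% of 2387 region probes and 15.1% of 4162 accession probes were called. The corresponding shares were 8.56% and 18.9% in the second class, 9.51% and 16.0% in the next, and 6.51% of 261 region probes and 15.2% of 6288 accession probes in the brightest. This is a description, and the difference between the kinds of probe was not tested. The direction of the region calls shifted with brightness, from 51 higher and 126 lower in the dimmest class, through 66 and 64 and then 45 and 23, to 17 higher and 0 lower in the brightest. Accession probes shifted the same way, from 192 higher and 435 lower to 770 higher and 183 lower.

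**Figure D2:**
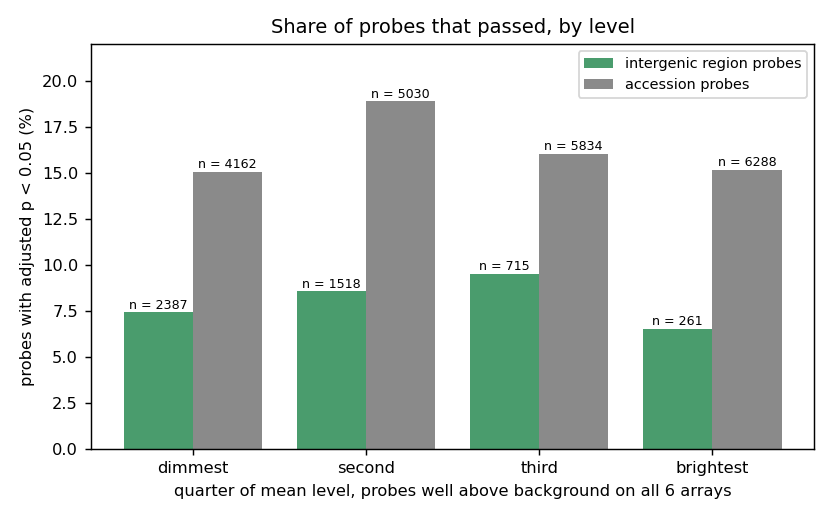
Percent of probes with a limma adjusted p under 0.05 in each of 4 classes of mean level, for region probes (green) and accession probes (grey) that were well above background on all 6 arrays, with the number of probes above each bar. Region probes run from 6.51% to 9.51% and accession probes from 15.1% to 18.9%, and the number of region probes falls from 2387 in the dimmest to 261 in the brightest class.

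Among region strands with at least 2 tested probes that were all called higher, a pair of overlapping regions on chromosome 8 had the largest differences on the standing probe. At chr8:89996710-90049453, forward strand, the positive arrays read 1.35, 1.56 and 1.83 and the negative arrays -0.69, -0.34 and -0.44. Every positive array lay above every negative one, by 2.07 ± 0.18 on the log2 scale, a fold of 4.19 (limma adjusted p = 0.000693), and the other tested probe of the strand rose by 1.85. The short region chr8:90048940-90049461, which shares 514 bp with the end of the first, read 0.59, 0.70 and 0.82 against -1.67, -1.06 and -1.22. All 3 of its probes rose, by 2.01 to 2.12, with a difference of 2.01 ± 0.19 on the standing probe (limma adjusted p = 0.00084). The regions of this pair overlap, so their 5 tested probes are not independent readings. A longer region contains the short region and most of the other. On its forward strand none of its 2 tested probes was called, with a difference of 0.34 on the standing probe (limma adjusted p = 0.233).

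On chromosome 4, chr4:90877414-90917198 rose on both of its strands. Its forward strand read -0.46, -0.16 and -0.07 in the positive cells and -1.89, -1.70 and -1.91 in the negative cells. Both tested forward probes were called, with a difference of 1.61 ± 0.16 on the standing probe (limma adjusted p = 0.001), whereas 5 of the 7 forward probes were too dim to test. The reverse strand read -0.69, -0.64 and -0.07 against -1.40, -1.50 and -1.03. Its groups did not overlap either, at 0.85 ± 0.22 (limma adjusted p = 0.0362), and 3 of its 5 tested probes were called. The reverse call was lost when any array other than positive replicate 1 was left out, with no filter on dim probes and with the percentile over detected probes (adjusted p between 0.00838 and 0.122 over its alternatives).

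Short regions were among those that rose. The 617 bp region chr9:4260788-4261404, forward strand, read 0.51, 0.41 and 0.90 in the positive and -0.97, -0.69 and -0.80 in the negative cells. The difference was 1.43 ± 0.18 (limma adjusted p = 0.00214), and its other probe rose by 0.89. In the 870 bp region chr1:135956616-135957485, reverse strand, the positive arrays lay close together at -0.20, -0.14 and -0.24, and the negative arrays at -1.66, -1.40 and -1.53. All 3 of its probes rose, by 1.32 to 1.62, and the standing probe by 1.34 ± 0.14 (limma adjusted p = 0.00114). In both regions the gap between the groups was wider than the spread within either.

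On the reverse strand of chr2:154235540-154248551 the positive arrays read -1.89, -1.65 and -2.32 and the negative arrays -3.20, -3.14 and -3.68. The standing probe rose by 1.38 ± 0.23 (limma adjusted p = 0.00662), or by 0.67 with normexp background correction and 2.10 with the mean of its tested probes. On that mean it stood beside the chromosome 8 pair, at 1.96 and 2.08. However, the mean includes the other tested probe of the strand, which was well above background on no negative array. That probe passed the filter through the positive cells only, so its direction was fixed by it. It was at least 2.88-fold higher in the positive cells. For such a lower bound, each array of the dim group was given the probe's value or, if greater, the faintest signal that any probe well above background had there, and the mean of these was set against the bright group's mean. Here and below, "at least" refers to this bound. It carries no sampling error, and a higher floor would make it smaller. The region chr5:106982442-107045717, reverse strand, read 0.05, 0.24 and -0.08 against -1.22, -1.11 and -1.14, and both of its tested probes, of 8 on the array, were called. Its difference was 1.22 ± 0.15 (limma adjusted p = 0.00186), with no overlap between the groups.

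Of the remaining regions called higher by that rule, some were less stable. At chr4:21683562-21694350, reverse strand, the positive arrays read -0.28, -0.22 and -1.03 and the negative arrays -1.86, -1.34 and -2.16. Replicate 3 was the lowest array of each group, and the difference was 1.28 ± 0.29 (limma adjusted p = 0.0229). This call was lost with no filter on dim probes and without negative replicate 1 or 3 or positive replicate 1 or 2 (adjusted p between 0.00413 and 0.0853 over its alternatives). Another region on the array has the same start and ends a few bases earlier. Its reverse strand had 1 tested probe, which was not called (-0.01, limma adjusted p = 0.97). The region chr11:120046656-120050065, forward strand, spread widely in the positive cells, at -2.54, -2.05 and -1.68, and little in the negative cells, at -3.22, -3.19 and -3.31. It rose by 1.15 ± 0.22 (limma adjusted p = 0.0129), but the call was lost with normexp, where the difference was 0.48, and without negative replicate 1 or 3 (adjusted p between 0.00392 and 0.0577). At chr4:54669012-54940960, reverse strand, values of -0.80, -0.58 and -0.76 stood against -1.49, -2.25 and -1.69, and all 3 of its probes rose, by 1.03 to 1.15 (limma adjusted p = 0.0133 on the standing probe). With no filter on dim probes its adjusted p was 0.0513, the highest of its alternatives, which began at 0.0041.

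The 12 region strands that the same rule took as called lower differed by -2.90 to -1.59, against 1.01 to 2.07 in the 12 called higher. These ranges are no measure of which direction changed more, since both lists were chosen by size of difference. Several lower strands, among them the one at -2.90 (-0.88 with normexp), were above background on no positive array. The higher strands were, on their standing probes, above background on every array of both groups. On chromosome 2, a pair of neighbouring regions on the reverse strand, 12.8 kb apart, was lower on all 10 of their probes. At chr2:94046243-94070067 the positive arrays read -2.19, -2.81 and -2.25 and the negative arrays -0.02, 0.46 and 0.64. The groups stood 2.77 log2 units apart (-2.77 ± 0.24, limma adjusted p = 0.00067), and its 5 probes fell by between -2.94 and -2.09. The brighter region chr2:94082835-94101939 read 0.65, 0.24 and 0.30 against 2.27, 2.38 and 2.37. Its negative arrays agreed closely, the difference was -1.94 ± 0.16 (limma adjusted p = 0.000609), and its 5 probes lay between -2.09 and -1.08. Both calls held under every alternative that was run.

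A pair of overlapping regions on chromosome 1, read on the reverse strand, was measured in the negative cells only. At chr1:175653557-175671940 the negative arrays read -1.99, -1.92 and -2.43, and none of the positive arrays, at -4.56, -5.34 and -5.14, was well above background. The transcript was at least 4.37-fold lower in the positive cells (difference of the measured values -2.90 ± 0.24, limma adjusted p = 0.000642). The region chr1:175654606-175672031, which shares 17335 bp with it, read -2.47, -2.55 and -3.16 in the negative cells and -4.65, -5.85 and -6.03, below background, in the positive cells. It was at least 2.86-fold lower (-2.78 ± 0.37, limma adjusted p = 0.00286). All 6 tested probes of the pair were called, but they passed the filter through the negative cells only. Their direction was therefore fixed by it, and their agreement adds no support. With normexp, which adds an offset that compresses dim values, the differences were -0.88 and -0.41, and the second was no longer called (adjusted p between 0.000576 and 0.0856 over its alternatives).

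Similar negative-only signal came from short or dim regions elsewhere. The reverse strand of chrX:18734106-18744367 read -2.49, -2.91 and -2.32 in the negative cells, and -4.82, -4.39 and -4.76, below background, in the positive cells. It was at least 3.16-fold lower on the standing probe (-2.08 ± 0.20, limma adjusted p = 0.000949) and at least 4.03-fold lower on another of its 3 probes. The 601 bp region chr8:49915104-49915704, reverse strand, read -2.52, -2.86 and -2.48 against -5.57, -5.30 and -3.95, and was at least 3.05-fold lower (-2.32 ± 0.39, limma adjusted p = 0.00761). Both standing probes passed the filter through the negative cells only, so their direction was fixed by it. Both calls were lost with normexp, at -0.37 and -0.38, with adjusted p between 0.000564 and 0.122 over the alternatives of the first and between 0.00107 and 0.143 over those of the second. The markers of microglia and of meninges given above were likewise lower in the positive cells, and their part in these differences was not tested.

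Regions with signal in both groups fell as well. In chr8:48480224-48480698, reverse strand and 475 bp long, the positive arrays read -2.40, -3.93 and -2.83 and the negative arrays -0.30, -0.61 and -0.70. All 3 of its probes were called, with a difference of -2.52 ± 0.36 (limma adjusted p = 0.00382), which was -1.32 with normexp. In chr3:145313275-145315057, forward strand, values of -1.90, -2.94 and -2.86 stood against -0.40, -0.63 and -0.84. Its difference of -1.94 ± 0.29 (limma adjusted p = 0.00432) was -0.99 with normexp, and all 3 probes were called. The forward strand of chr9:13349094-13352732 read -1.01, -1.07 and -0.42 in the positive and 1.31, 0.56 and 1.30 in the negative cells. The groups did not overlap, at -1.89 ± 0.27 (limma adjusted p = 0.00356), and its 3 probes lay between -1.98 and -1.89.

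Of the 3 regions deposited without a strand, 2 had tested probes, and both were lower. At chr3:34856791-34869544 the positive arrays read 0.19, -0.51 and -0.07 and the negative arrays 1.75, 1.78 and 1.84. The difference was -1.92 ± 0.19 (limma adjusted p = 0.00107), and all 3 of its probes fell, by between -1.92 and -1.82. At chr17:12941161-12944859, values of -2.65, -3.08 and -3.11 stood against -1.18, -1.89 and -1.51, and 3 of its 4 tested probes were called (-1.42 ± 0.22, limma adjusted p = 0.00547, or -0.72 with normexp). Together these held 6 called probes of 7 tested.

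The forward strand of chr14:61240427-61325677 closed the list of lower regions, with positive arrays at -2.99, -3.16 and -3.07 and negative arrays at -1.55, -1.37 and -1.54. Replicates lay close together in both groups (SD 0.08 and 0.10), and the difference was -1.59 ± 0.14 (limma adjusted p = 0.000693), or -0.72 with normexp. The plot of every array's value in the named regions shows that none of these 24 region strands had overlapping groups, which the rule that chose them required.

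**Figure D3:**
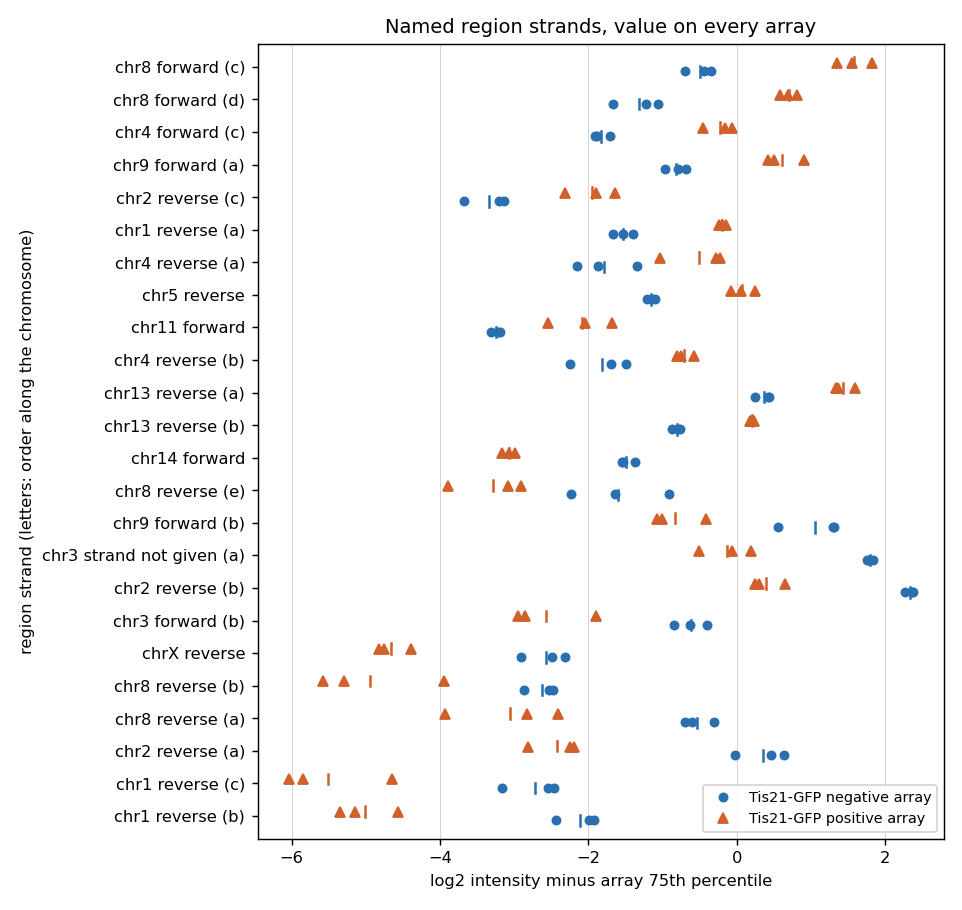
Value of the standing probe on each of the 6 arrays (log2 intensity minus the array's 75th percentile) for the 12 region strands with the largest differences in each direction among those with all of at least 2 tested probes called. Triangles are Tis21-GFP positive arrays, circles Tis21-GFP negative arrays and vertical bars group means, and letters order the strands along a chromosome. Positive arrays lie to the right in the upper 12 strands, led by chr8 forward at 1.35 to 1.83, and to the left in the lower 12.

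The largest gain of any single region probe lay outside this rule's list and was picked after its value was seen. In chr17:15226181-15250333, forward strand, all 4 tested probes rose, by 0.80 to 3.03. The top probe was above background on no negative array and was at least 3.06-fold higher in the positive cells. It passed the filter through the positive cells only, so its direction was fixed by it. On the standing probe, the positive arrays read -2.06, -1.88 and -1.62 and the negative arrays -2.95, -2.47 and -2.54, a difference of 0.80 ± 0.19 (limma adjusted p = 0.0283), or 1.65 with the mean of the tested probes, which includes the top probe. This standing-probe call was lost with no filter, with the percentile over detected probes and whenever an array other than positive replicate 1 was left out (adjusted p between 0.00062 and 0.1 over its alternatives).

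Probes of 1 region strand share a target, so their agreement shows how uniform a measurement is and adds no replicates. Of 1449 region strands with at least 2 tested probes, 274 had a called probe, and in 219 of these all tested probes had the same sign. In 121 strands at least 2 probes were called, and in 119 of them all calls went 1 way, 41 higher and 78 lower. All tested probes were called higher in 24 strands and lower in 34. Over all region probes, 152 of the lower calls were complete in the negative group only and 25 of the higher calls in the positive group only. The filter favoured the direction of these calls, so agreement among them adds no support. The range of differences within a strand had a median of 0.34 over the 1449 strands and of 0.57 over the 274. Of the 1230 strands with 1 tested probe, 95 were called, and in all 369 strands of 355 regions had at least 1 called probe. For comparison, 16.5% of all tested probes were called.

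Strands with at least 5 tested probes that were all called, a criterion added after the values were seen, numbered 7, of which 2 are the chromosome 2 neighbours above. In chr1:141070245-141076841, forward strand, all 7 probes rose, by 0.69 to 0.89. Its standing probe read 1.91, 1.80 and 1.71 in the positive and 0.77, 0.94 and 1.04 in the negative cells, and the groups did not overlap (0.89 ± 0.14, limma adjusted p = 0.00645). The 5 probes of chrX:54627918-54638568, reverse strand, rose by 0.60 to 0.79. On its standing probe, values of 3.68, 3.67 and 3.77 stood against 2.85, 2.92 and 3.01, with an SD of 0.05 and 0.08 within the groups (0.78 ± 0.13, limma adjusted p = 0.00797). The 5 probes of chr6:120670699-120677449, forward strand, rose by 0.71 to 1.03, with the standing probe at 0.46, 0.41 and 0.45 against -0.24, -0.44 and -0.39 (0.80 ± 0.13, limma adjusted p = 0.00752).

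Downward, the 5 probes of chr16:46384974-46391331, reverse strand, fell by between -1.81 and -1.49. Its standing probe read 1.06, 0.66 and 1.11 in the positive and 2.39, 2.35 and 2.56 in the negative cells (-1.49 ± 0.17, limma adjusted p = 0.00158). All positive arrays were clearly below the negative ones. The 5 probes of chr5:122982442-123000053, reverse strand, lay between -1.33 and -0.80. Its standing probe read -1.99, -2.65 and -2.18 against -1.14, -1.34 and -1.29, a difference of -1.02 ± 0.20 (limma adjusted p = 0.013), which was lost with normexp (-0.43), with no filter and without negative replicate 1 (adjusted p between 0.00303 and 0.0785).

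The most tested probes on a strand were 10, which 12 region strands had. In 8 of these no probe was called, and in 4 at least 1 was. The 6 described in detail were taken among the tied strands by the name of their standing probe. In chr7:66562376-66579519 forward, chr12:72103832-72116875 reverse, chr13:83867711-83878140 forward and chr7:99879368-99889978 reverse, none of the 10 probes was called. Their standing probes differed by 0.13 ± 0.19, -0.03 ± 0.17, -0.08 ± 0.26 and -0.40 ± 0.21, with limma adjusted p of 0.654, 0.919, 0.857 and 0.224. In each of them the arrays of the groups overlapped. In chr16:43623581-43642715, forward strand, all 10 probes lay below 0, from -0.89 to -0.24, but 2 were called. The brightest probe of that strand read 3.41, 2.94 and 3.46 against 3.47, 3.45 and 3.60, which overlapped (-0.24 ± 0.18, limma adjusted p = 0.381).

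Of the strands taken in this way, chr8:91569369-91594119 forward was not uniform. Of its probes, 6 were called lower, and the differences ran from -1.55 to 0.23. The standing probe was the exception: it read 3.71, 3.09 and 3.57 in the positive and 3.12, 3.32 and 3.23 in the negative cells, so the groups overlapped (0.23 ± 0.19, limma adjusted p = 0.425). With the mean of the 10 probes in its place, the difference was -1.04 and was called (limma adjusted p = 0.034, against up to 0.968 under its other alternatives). A single value for this region therefore depended on the probe read.

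The other 6 of the 12 tied strands held calls in 2, both higher. In chr17:26911397-26917047, forward strand, all 10 probes lay above 0, from 0.38 to 0.69, and 3 were called, while its standing probe was not (0.43 ± 0.15, limma adjusted p = 0.0915). In chr1:138528250-138538250, forward strand, 2 of the 10 were called, and the differences ran from -0.77 to 0.53 (standing probe 0.43 ± 0.14, limma adjusted p = 0.0721). No probe was called in chr16:90038086-90127636 reverse, chr6:116092274-116144199 reverse, chr4:129497990-129515290 forward or chr5:74487385-74497428 forward.

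Probes of 1 strand were called in opposite directions in 2 region strands. In chr14:65431652-65437902, reverse strand, 8 of 10 probes were tested, 1 rose by 0.57 ± 0.16 (limma adjusted p = 0.0473), 1 fell by 0.84 (-0.84 ± 0.17, limma adjusted p = 0.0147), and the other 6 were not called. The standing probe read -0.83, -0.54 and -1.15 against -1.13, -1.30 and -1.06, and the groups overlapped (0.32 ± 0.19, limma adjusted p = 0.269). In chr1:182686731-182709331, forward strand, the standing probe read 1.39, 0.89 and 1.55 in the positive and 0.34, 0.40 and 0.76 in the negative cells, a difference of 0.78 ± 0.21 (limma adjusted p = 0.0449). Another probe of the strand fell (-0.51 ± 0.13, limma adjusted p = 0.0407), and the mean of its 3 tested probes gave -0.04. The rise of the standing probe was also lost with quantile normalization, the authors' values, the percentile over detected probes and no filter, and without any array other than positive replicate 2 (adjusted p between 0.0106 and 0.86 over its alternatives).

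Both strands were probed in 1066 regions, of which 478 were tested on both, 435 on 1 and 153 on neither. Calls on both strands of a region were few. The standing probe was called on both strands in 4 of the 478 regions, on 1 strand in 55 and on neither in 419. In the 4 regions the strands went the same way. In the 55, the strand that was not called had the same sign in 30 and the opposite sign in 25, and over all 478 regions the signs matched in 250. Forward and reverse probes were called in similar shares, 9.33% of 2701 tested forward probes and 10.2% of 3070 reverse ones.

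**Figure D4:**
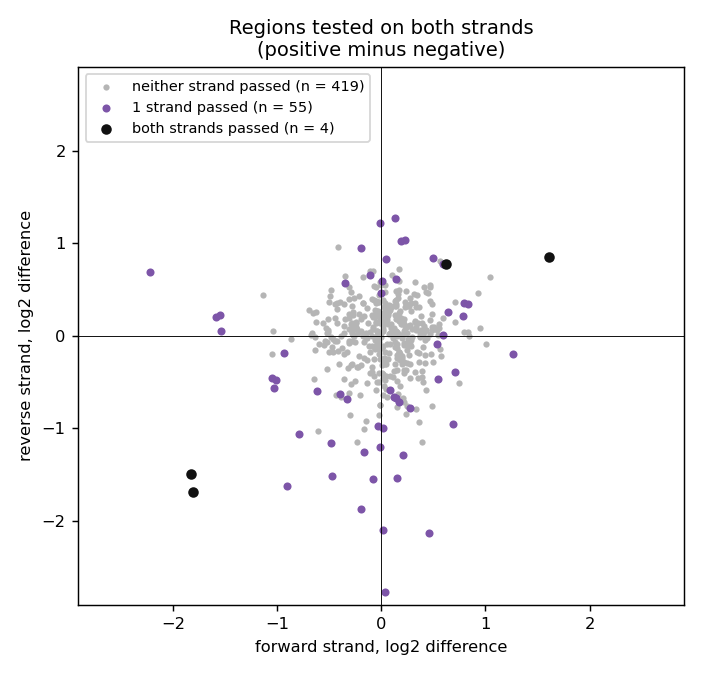
Difference between Tis21-GFP positive and negative cells (log2) on the reverse strand against that on the forward strand for the 478 regions tested on both strands, each strand shown by its standing probe. Black points are the 4 regions called on both strands, which lie in the quadrants of equal sign, purple points the 55 called on 1 strand, and grey points the 419 called on neither.

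The 4 regions called on both strands were, beside the chromosome 4 region above, 1 that rose and 2 that fell. In chr12:119825125-119850750 the forward strand was very bright, at 6.39, 6.59 and 6.55 in the positive and 5.60, 6.01 and 6.05 in the negative cells (0.62 ± 0.17, limma adjusted p = 0.0443). Its reverse strand read 2.47, 1.98 and 2.09 against 1.15, 1.62 and 1.46 (0.77 ± 0.19, limma adjusted p = 0.0343). The groups did not overlap on either strand, yet the forward call was lost when any 1 array was left out. The reverse call was lost with the replicate block and without any array of the negative group or positive replicate 1, and both were lost with quantile normalization, the authors' values, the detected-probe percentile and no filter (adjusted p between 0.00712 and 0.172 over the alternatives of both).

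In chrX:6982891-7008528 the reverse strand read -0.99, -1.35 and -1.37 in the positive and 0.00, 0.43 and 0.35 in the negative cells. The groups were apart by more than their spread (-1.50 ± 0.18, limma adjusted p = 0.00195). Its forward strand was above background on no positive array and was at least 1.65-fold lower (-1.83 ± 0.30, limma adjusted p = 0.00638), a call lost with normexp (-0.25). In chr8:111766396-111772271, the reverse strand read -2.91, -3.08 and -3.89 against -0.92, -1.64 and -2.23 (-1.69 ± 0.37, limma adjusted p = 0.0215), and its 3 tested probes were called. Its forward strand was at least 1.52-fold lower (-1.81 ± 0.50, limma adjusted p = 0.0475). In both regions the forward probe was above background on no positive array, so the filter fixed its direction. Both chromosome 8 calls were lost with quantile normalization, the authors' values and no filter, and without negative replicate 1 or 2. The forward call was also lost with normexp and without negative replicate 3 or positive replicate 2 or 3 (adjusted p between 0.00214 and 0.711 over the alternatives of both).

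When every tested probe was read, and not the standing probe alone, 14 regions had a called probe on both strands, and in 2 of them the strands went opposite ways. Both regions were singled out after their values were seen. In chr15:61984389-62102500, 3 of 5 tested reverse probes rose, by 0.47 to 0.61, while 2 of 4 tested forward probes fell, 1 of them by at least 2.42-fold. The reverse standing probe read 0.37, 0.26 and 0.23 in the positive and -0.14, -0.21 and -0.18 in the negative cells (0.47 ± 0.13, limma adjusted p = 0.0487). That rise was lost when any 1 array was left out, with the replicate block, with normexp, with no filter, with the detected-probe percentile and with the mean of the probes (adjusted p between 0.0355 and 0.18). The forward standing probe did not separate the groups, at -0.04, 0.56 and 0.32 against 0.11, 0.28 and 0.47 (-0.01 ± 0.19, limma adjusted p = 0.983). With the mean of its 4 tested probes, the forward strand was called lower (-0.97, limma adjusted p = 0.00254, against up to 0.994 under its other alternatives). This mean includes the forward probe given by a lower bound. That probe passed the filter through the negative cells only, so its direction was fixed by it.

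In chr17:6602100-6615425 the reverse strand read -0.79, -0.85 and -0.79 in the positive and -1.89, -1.67 and -1.72 in the negative cells. That probe rose by 0.95 ± 0.14 (limma adjusted p = 0.00386), and the other 2 tested reverse probes were not called. On the forward strand 1 of 4 tested probes was called, at least 1.74-fold lower in the positive cells, where it was above background on no array (-1.70 ± 0.29, limma adjusted p = 0.00805). The forward standing probe differed by -0.19 ± 0.13 (limma adjusted p = 0.344). With the mean of its 4 tested probes, the forward strand was called lower (-1.01, limma adjusted p = 0.00194, against up to 0.965 under its other alternatives), and the mean of the reverse probes gave 0.62. The forward mean includes the called forward probe, which passed the filter through the negative cells only, so the direction of that probe was fixed by it.

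Regions on 1 chromosome no more than 50 kb apart were joined into 1724 clusters, of which 810 held 1 region. In 31 clusters at least 2 region strands were called. All calls went 1 way in 29 of these, 12 higher and 17 lower, and both ways in 2. Regions of a cluster can overlap, so some of these calls read the same bases. Some of the called probes passed the filter through 1 group only, which fixed their direction.

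The cluster chr1:175653557-175717250 spans 63.7 kb and held 3 tested region strands, all reverse and all lower. Beside the overlapping pair above, chr1:175705225-175717250 read -3.55, -4.36 and -4.24 in the positive and -1.65, -1.53 and -1.84 in the negative cells. It fell by 2.38 on its standing probe (-2.38 ± 0.23, limma adjusted p = 0.000943), or by 0.78 with normexp, while its other tested probe was not called (-0.24). Of the 8 tested probes of the cluster 7 were called lower, but 6 of them were above background on no positive array and passed the filter through the negative cells, so their direction was fixed by it. With the mean of its tested probes, chr1:175705225-175717250 differed by -1.31.

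The cluster chr9:41137539-41425855, 288 kb long, had 3 of 7 tested region strands called lower. All 3 were forward strands, of regions 692, 1420 and 12459 bp long. In chr9:41408354-41420812 the positive arrays read -3.60, -4.28 and -4.75 and the negative arrays -2.59, -3.13 and -2.30 (-1.53 ± 0.32, limma adjusted p = 0.0183). The strands chr9:41368823-41369514 (-1.32 ± 0.33, limma adjusted p = 0.0337) and chr9:41300137-41301556 (-1.02 ± 0.23, limma adjusted p = 0.0236) were called too. The other 4 strands differed by -1.02 to 0.07, and the long region chr9:41137539-41353289, which contains chr9:41300137-41301556, differed by -0.29 ± 0.29 forward and -0.31 ± 0.49 reverse, with overlapping groups. All 3 calls were lost with normexp, with no filter and without negative replicate 1 or 3. The call of chr9:41368823-41369514 was also lost without negative replicate 2 or positive replicate 1 or 2, and that of chr9:41300137-41301556 with the mean of its probes (adjusted p between 0.00276 and 0.281 over the alternatives of the 3).

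On chromosome 13 the cluster chr13:28477490-28985604 spans 508 kb and held 13 regions. Of its 13 tested region strands, 3 were called higher, all on the reverse strand, and none lower; of its 32 tested probes, 10 were called higher. In chr13:28700385-28760363 the positive arrays read 1.36, 1.59 and 1.34 and the negative arrays 0.25, 0.42 and 0.43 (1.06 ± 0.15, limma adjusted p = 0.00318). The groups were separate on both of its probes. The adjoining region chr13:28760289-28977218, which shares 75 bp with it, read 0.24, 0.19 and 0.18 against -0.87, -0.79 and -0.77 (1.01 ± 0.13, limma adjusted p = 0.00245), and all 3 of its probes were called.

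The third, chr13:28551902-28975446, contains chr13:28700385-28760363 and read 2.15, 2.62 and 2.55 in the positive and 1.38, 1.56 and 1.59 in the negative cells. Its difference was 0.94 ± 0.17 (limma adjusted p = 0.0107), a call lost without negative replicate 1 (adjusted p between 0.0019 and 0.0526 over its alternatives). The other 10 strands of the cluster differed by -0.48 to 0.42. Among them the reverse strand over the whole interval, chr13:28477490-28985604, read 3.59, 3.81 and 3.82 against 3.28, 3.43 and 3.43. Its groups did not overlap, but the difference of 0.36 ± 0.14 did not pass (limma adjusted p = 0.126). Its forward strand had 1 tested probe of 5 and differed by -0.17 ± 0.15, with overlapping groups. Within this cluster the called strands lay among others, on the same strand, whose standing probes were not called. For chr13:28537223-28539860, reverse strand, this rested on the probe read. There 2 of 3 tested probes were called higher, with differences of 0.26 to 0.97, but the standing probe was not (0.26 ± 0.26, limma adjusted p = 0.516).

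**Figure D5:**
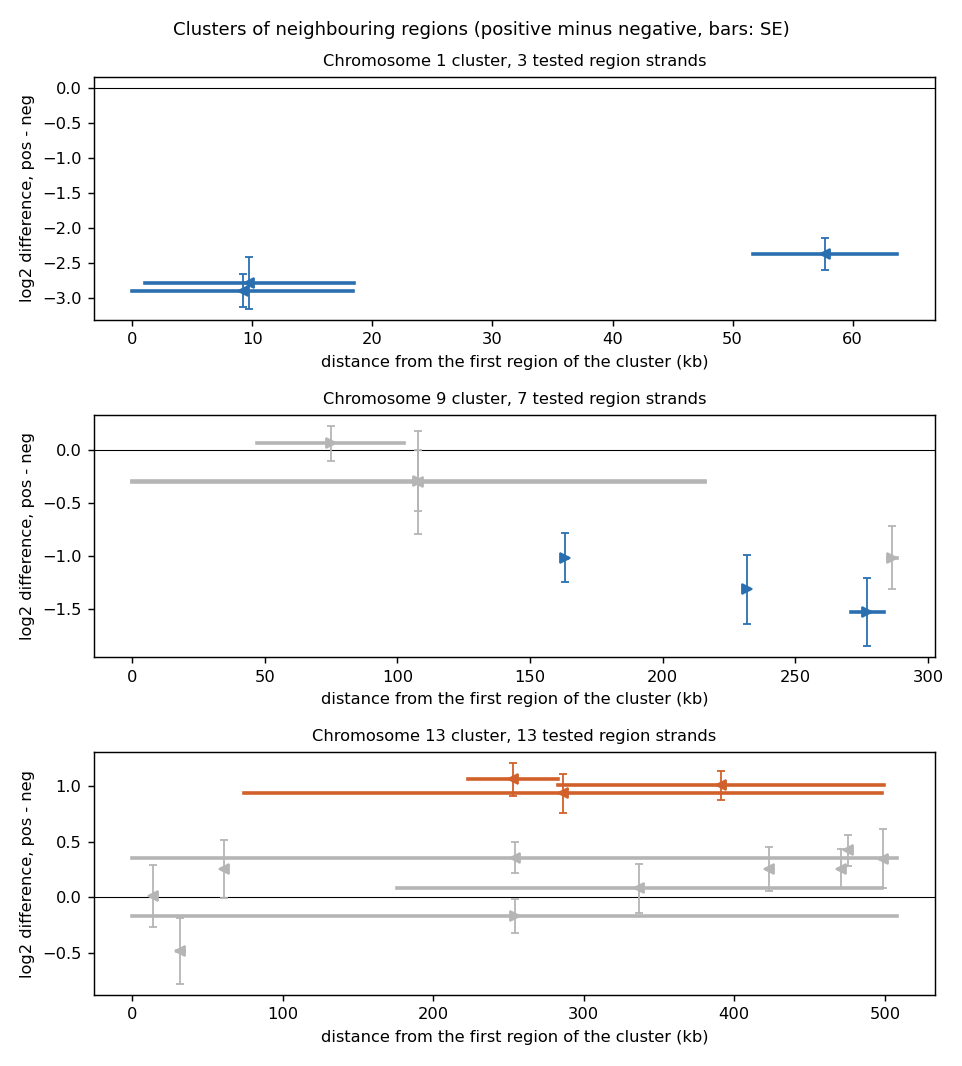
Difference between Tis21-GFP positive and negative cells (log2, bars are SE) for the tested region strands of the chromosome 1, 9 and 13 clusters against distance from the start of the cluster (kb). Horizontal lines are the regions, triangles point in the direction of the strand, and colour marks calls (orange higher, blue lower, grey not called): 3 of 3 strands are lower on chromosome 1, 3 of 7 lower on chromosome 9 and 3 of 13 higher on chromosome 13.

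A small cluster on chromosome 2, chr2:79517813-79521871, held 2 tested forward strands, both lower on all 4 of their tested probes. In chr2:79517813-79518321 the positive arrays read -0.33, -1.06 and -0.18 and the negative arrays 0.98, 0.84 and 0.71. All 3 of its probes fell (-1.37 ± 0.24 on the standing probe, limma adjusted p = 0.00896). Its neighbour chr2:79521628-79521871, 244 bp long, was above background on no positive array and was at least 1.48-fold lower (-1.93 ± 0.24, limma adjusted p = 0.00224), a call lost with normexp (-0.25). The direction of that neighbour was fixed by the filter, which it passed through the negative cells only.

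Calls were found on every chromosome that carried regions. The share of tested region probes called ran from 5.52% of 290 on chromosome 7 to 15.9% of 232 on chromosome 9, against 16.5% of all tested probes. Chromosomes 4, 11, 13 and 14 held more higher than lower calls, with 25 and 18, 11 and 7, 14 and 9, and 15 and 11. All others held more lower calls, from 26 higher and 29 lower on chromosome 1 to 3 and 17 on chromosome 16 and 1 and 23 on chromosome 3. These splits hold for the main scaling only. Under the other scalings the share of higher calls over all region probes ran from 13.2% to 58.7%. Overlapping regions and several probes per region add to such counts, so they describe the probes and not independent loci.

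The length of a region is the last feature that the member rule did not use. Of region strands up to 1 kb long, 48.8% had a tested probe, against 59.9% between 1 and 5 kb and 62.7% over 50 kb. The share of tested probes called was 10.2% up to 1 kb, 11.6% from 1 to 5 kb, 10.1% from 5 to 20 kb, 8.52% from 20 to 50 kb and 9.61% above, against 16.5% of all tested probes. With the main scaling, each length class held more lower than higher calls, from 22 higher and 61 lower up to 1 kb to 30 higher and 48 lower above 50 kb. Over all tested probes 7.52% were higher and 8.96% lower. The balance over all region probes moved with the scaling and the detection filter, as given above, and was not split by length under the alternatives.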

How the data were processed

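RNA of 6 samples was measured on 1-colour arrays, and the scanner files are per the file headers output of Agilent Feature Extraction 10.7.1.1 with the array design placed on mm9. The deposited processed intensity of a spot includes that software's background steps and no scaling between arrays. Whether a spot is well above background was read from the deposited flag of the scanner software. The table of values that the authors deposited is on a log2 scale. Read from the values alone, they are uncentred and alike in distribution between arrays (median 4.66 in each column, correlation with the log2 scanner intensity at least 0.999482), and how they were made is stated in no source used here.

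Control spots and spots marked as outliers (118 to 191 non-control spots per array) were left out, and repeated spots of a probe were averaged. From log2 intensity each array's 75th percentile over non-control probes, 213 to 341 intensity units, was subtracted. The test was limma 3.58.1 (lmFit, eBayes; R 4.3.3) with a group term alone. P-values of all 28928 tested probes were adjusted together by Benjamini-Hochberg, at a threshold of 0.05. Python 3.11.15 did the counting. For 4 tested region probes 1 array was missing after the outlier filter. Correlations between arrays over tested region probes were 0.950 to 0.977 within and 0.925 to 0.955 between groups. The number of arrays limits the precision, and 0 pairs of arrays were identical.

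Members and lists were chosen with earlier results of these data known. The naming rule took the 12 largest differences in each direction among region strands with at least 2 tested probes, all called 1 way, no overlap between groups and full detection in the brighter group. It also took strands or probes called in opposite directions (for strands by their standing probe, none was found), the 6 clusters with the most strands called 1 way, and 6 of the 12 strands with the most tested probes, ties being settled by the name of the standing probe. Strands with at least 5 tested probes all called, regions with calls on both strands, regions without a strand and the largest probe gain were added after the values were seen. Percentile scaling with a limma fit was tried on simulated data. The simulation did not cover the spot averaging, the grouping into region strands and clusters, or the counts.

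Per the labels, replicates are separate experiments, and both groups carry the numbers 1 to 3. Deviations from the group means gave correlations of 0.167, 0.122 and 0.351 for arrays of the same number and -0.208 to 0.0704 for others, so the numbers were taken to pair the samples. The main fit does not use this pairing, which entered only as the replicate block among the alternatives. The p-values and counts given in the Results are therefore unpaired unless the block is named. All 6 arrays share 1 slide and 1 scan, so neither could serve as a block. Alternatives were normexp (offset 50, on the median spot signal), quantile normalization, median centring, a percentile over detected probes, the authors' values, no filter, a stricter filter, a replicate block, a variance trend, the mean of a strand's probes and leaving out each array.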

Additional observations from a re-analysis of the deposited data

How the results depend on the processing

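With the replicate block, 228 region probes were called higher and 498 lower, against 205 and 365 without it, and of the named calls the block ended 2, the reverse strands of chr12:119825125-119850750 and chr15:61984389-62102500; it changed no other named call. Lower calls numbered 160 probes, 74 strands and 140 probes above background on all 6 arrays with normexp, against 365, 139 and 213. Higher calls numbered 420, 188 and 354 with median centring, and 77, 39 and 67 with the percentile over detected probes, against 205, 87 and 179; with the latter 323 of the fully detected probes were lower. With no filter, which adds probes at background to the adjustment, 71 and 190 probes, 30 and 67 strands, and 40 and 67 fully detected probes were higher and lower. When fully detected probes alone were tested, 239 were lower. Leaving out 1 array gave 70 to 174 probes higher and 142 to 558 lower, 32 to 74 and 55 to 212 strands, and 59 to 156 and 74 to 343 fully detected probes. The quantile, authors' and trend settings stayed within 1.5 times of these counts. The sign turned only for named differences near 0 or for strands whose probes disagree: with the mean of the probes at chr1:182686731-182709331 (-0.045), chr8:91569369-91594119 (-1.04) and chr13:83867711-83878140 (0.28); with median centring at chr13:83867711-83878140 (0.10), chr12:72103832-72116875 (0.15) and the forward strand of chr15:61984389-62102500 (0.17); with normexp at chr12:72103832-72116875 (0.096) and chr15:61984389-62102500 (0.091); with quantile normalization and the authors' values at chr12:72103832-72116875 (0.021 and 0.020); and with the detected-probe percentile at chr7:66562376-66579519 (-0.039). Without 1 array the differences ran from -0.040 to 0.24 at chr7:66562376-66579519, -0.17 to 0.058 at chr12:72103832-72116875, -0.29 to 0.13 at chr13:83867711-83878140, and -0.15 to 0.15 on the forward strand of chr15:61984389-62102500. Depth is limited by signal over background: 10403 region probes could not be tested, and dim regions have a lower bound on one side. The causes of these shifts were not tested.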
